A study of Mus musculus with 24 samples.

Results

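The 9 genes Cpt1a, Slc25a20, Cpt2, Acadvl, Acadl, Acadm, Hadha, Hadhb and Etfdh were taken by name from 25746 genes counted in mouse liver, as enzymes that carry long-chain fatty acids into mitochondria and oxidise them there. The list was titled beta-oxidation and ketogenesis enzymes, but none of the 9 is an enzyme of ketone body formation. Bdh1 and Acat1, of ketone body metabolism, were therefore described beside them. Livers came from 12-week-old C57/BL6N mice in 4 groups of 6, namely male wildtype (mWT), male knockout (mKO), female wildtype (fWT) and female knockout (fKO) mice. In the KO mice, CRISPR/Cas9 had removed the cluster of major urinary protein (Mup) genes on chromosome 4, between Mup4 and Mup21. The KO line descended from a founder male, and WT and KO mice were offspring of heterozygous parents. All groups received standard chow, fasted for a few hours and were anaesthetised with isoflurane before blood was drawn. The comparisons asked how the loss of the Mup cluster changed liver transcripts in each sex, and how females and males differed in WT and in KO mice.

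In mitochondrial beta-oxidation, long-chain acyl groups are passed to carnitine by Cpt1a on the outer membrane, carried across the inner membrane by Slc25a20 and returned to coenzyme A by Cpt2. Acyl-CoA dehydrogenases of different chain-length preference take the first step of each cycle, and the trifunctional protein made of Hadha and Hadhb takes the later steps for long chains. Electrons from the dehydrogenases reach the respiratory chain through the electron transfer flavoprotein and Etfdh. In liver, the acetyl-CoA made this way feeds ketone body synthesis during fasting, and the nuclear receptor Ppara is a known activator of many genes of the pathway.

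The libraries held 15361901 to 26261394 assigned counts, and the 9 genes together took 0.210 to 0.288% of them. Mup genes took 1.70 to 3.68% of the counts in mWT and 0.344 to 0.555% in fWT mice, and 0 to 11 reads per library in KO mice, as their labels require. All 8 hepatocyte markers examined were detected in every group. In whole liver, fewer cells of a type and less RNA per cell cannot be told apart. Replicates are separate mice.

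All 9 genes had a promoter window in RefSeq on GRCm38.p6, reaching from 250 bases before to 50 bases after the start site. The hexamer AGGTCA, the core motif of many nuclear receptors, was searched on both strands together with longer motifs that contain it, and was present in 3 of 9 windows (Acadm, Acadvl and Cpt1a) against 16.3% of 32851 windows of the same length. The DR1 motif AGGTCANAGGTCA, the arrangement read by Ppara with its partner Rxra, was in none of the 9 and in 0.0396% of all windows. With 1 mismatch allowed it was in none of the 9 and in 0.554% of all windows. The extended motif TCAAGGTCA was in none of the 9 and in 0.423% of all windows. The GC box GGGCGG was in 7 of 9 windows, all but Acadm and Acadvl, against 35.7% of all. The windows of Hadha and Hadhb overlap, and the GC box found for Hadha is also counted for Hadhb. These 7 windows had 57.3 to 70.3% G and C, beside a median of 52.7% over all windows. The CCAAT box CCAAT was in 2 windows (Cpt1a and Etfdh) against 37.4%, and neither TATAAA (13.6% of all) nor CACGTG (7.15% of all) was found in the 9. These are matches of letters only, and no match says only that the letters are not in that window.

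The stretches shown here hold each hexamer match, the GC boxes of Acadl, whose level followed that of Acadm most closely over mice, and the short interval between the divergent genes Hadha and Hadhb. Capitals mark AGGTCA or its reverse complement and GC boxes on either strand, and each run reads 5′ to 3′ on the strand of the gene.
Acadm, chr3:153944744-153944893, minus strand: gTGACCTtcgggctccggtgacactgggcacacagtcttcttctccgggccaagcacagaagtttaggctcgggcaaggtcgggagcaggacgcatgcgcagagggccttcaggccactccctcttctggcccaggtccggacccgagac
Acadvl, chr11:70015429-70015548, minus strand: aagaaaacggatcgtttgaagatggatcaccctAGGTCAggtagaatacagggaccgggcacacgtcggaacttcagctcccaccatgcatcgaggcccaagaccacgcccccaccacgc
Cpt1a, chr19:3323181-3323280, plus strand: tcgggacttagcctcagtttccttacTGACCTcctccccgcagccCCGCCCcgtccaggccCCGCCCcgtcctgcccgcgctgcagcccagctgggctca
Acadl, chr1:66863310-66863429, minus strand: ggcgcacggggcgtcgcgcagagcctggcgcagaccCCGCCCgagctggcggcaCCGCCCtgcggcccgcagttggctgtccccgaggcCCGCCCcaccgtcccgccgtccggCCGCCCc
Hadha to Hadhb, chr5:30155163-30155247, plus strand: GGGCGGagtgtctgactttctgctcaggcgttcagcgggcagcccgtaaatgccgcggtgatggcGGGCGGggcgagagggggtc
The Hadha to Hadhb stretch is the whole interval of 85 bases between both gene models, and holds 2 GC boxes.

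The genes lie on 7 chromosomes of GRCm38 in the GENCODE M21 models, which were used for positions and lengths. Cpt1a is ENSMUSG00000024900 at chr19:3322334-3385733 on the plus strand, Slc25a20 is ENSMUSG00000032602 at chr9:108662088-108684641 on the plus strand, and Cpt2 is ENSMUSG00000028607 at chr4:107903981-107923610 on the minus strand. Cpt2 shares chromosome 4 with the deleted cluster but lies outside it. Acadvl is ENSMUSG00000018574 at chr11:70010183-70015411, Acadl is ENSMUSG00000026003 at chr1:66830839-66863277 and Acadm is ENSMUSG00000062908 at chr3:153922357-153944632, all on the minus strand. Hadha is ENSMUSG00000025745 at chr5:30118304-30155162 on the minus strand, Hadhb is ENSMUSG00000059447 at chr5:30155248-30184593 on the plus strand, and Etfdh is ENSMUSG00000027809 at chr3:79603788-79629500 on the minus strand. Counts are summed over the exons of each gene. Acadvl, Hadha and Etfdh overlap other gene models, and those models held on average at most 49.2 counts per library against at least 5881 for the member.

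Per kilobase of merged exon, in CPM (counts scaled to library size) per kilobase, Acadvl was the highest of the 9 with a mean of 144 over the 24 mice. It was followed by Acadl at 111, Acadm at 84.8, Cpt1a at 65.2, Cpt2 at 55.2, Etfdh at 40.3, Hadha at 37.6, Slc25a20 at 23.5 and Hadhb at 19.7. Neighbours in this order overlapped in their ranges over mice, except Hadha and Slc25a20. Acadvl exceeded Acadl, and Acadl exceeded Acadm, in 24 of 24 mice, whereas Etfdh exceeded Hadha in 16 of 24. With the longest transcript as the length of a gene, Acadm ranked second at 162 and Cpt2 seventh at 55.6, so the middle of the order rests on the gene models.

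In males, the KO effect on the 9 genes was small and none passed the test across all genes. By the quasi-likelihood test of edgeR, adjusted after Benjamini and Hochberg, 0 of 9 were called at an adjusted p under 0.05, against 0.211% of the 12330 genes tested. That share includes the deleted Mup genes, and in the fit without them 2 genes were called. At an unadjusted p under 0.01, the threshold of the study, 1 of 9 passed (Acadm) against 3.52% of all genes. The same 1 passed at 0.05, beside 1305 of 12330 genes. DESeq2 also called 0 of 9. The log2 fold change was above 0 in 8 of 9 genes, against 49.4% of all genes, with a median of 0.15 beside -0.002 over all genes. The 9 genes varied together over mice, so their signs are not 9 separate observations.

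Acadm, the medium-chain acyl-CoA dehydrogenase, had 250 CPM in the lowest, 283 in the median and 392 in the highest mWT mouse. In mKO mice it had 309, 361 and 445 CPM. Every mKO mouse lay above the mWT median, but the ranges overlapped because mWT replicate 2, at 392 CPM, stood above 4 of the 6 mKO mice. The group means were 295 ± 51.1 CPM in mWT and 367 ± 53.2 CPM in mKO mice (SD, n = 6), with a log2 fold change of 0.31 (SE 0.106). The p was 0.00633 and the adjusted p was 0.236 by edgeR's quasi-likelihood test. Without mWT replicate 2 the log2 fold change was 0.41 with an adjusted p of 0.0617 by the same test, and the unadjusted count over the 9 genes was 2. That library also had the largest share of mitochondrially encoded counts, 6.98%. The next was mKO replicate 3 at 6.78%, and the lowest of all libraries had 4.41%. The part of this share in the result was not tested. Leaving out 1 of 7 other libraries (mWT replicate 3, 4, 5 or 6, or mKO replicate 2, 3 or 5) brought the count at an unadjusted p under 0.01 to 0, with a lowest log2 fold change of 0.25.

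Etfdh, which hands electrons from the flavoprotein to ubiquinone, had 245, 276 and 318 CPM in the lowest, median and highest mWT mouse and 302, 335 and 346 CPM in mKO mice. All 6 mKO mice lay above the mWT median and 4 of them above every mWT mouse. The log2 fold change was 0.24 (SE 0.13, adjusted p = 0.536, edgeR). Cpt1a, the rate-controlling step of entry into mitochondria, was the member with a negative value, -0.25 (SE 0.168, adjusted p = 0.657, edgeR). Its range was 513 to 572 CPM in mWT and 354 to 529 CPM in mKO mice, and 1 of 6 mKO mice lay above the mWT median.

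The other members differed by less. Cpt2 (log2 fold change 0.17, SE 0.0875) and Slc25a20 (0.10, SE 0.128) complete the carnitine shuttle. The long-chain dehydrogenase Acadl was at 0.15 (SE 0.0931) and the very-long-chain dehydrogenase Acadvl at 0.10 (SE 0.0673). The trifunctional subunits were at 0.08 (Hadha, SE 0.0735) and 0.19 (Hadhb, SE 0.0933). All 6 intervals included 0, and all 6 adjusted p-values from edgeR were at least 0.486. The interval bounded the change of Hadha to between 0.951 and 1.17 times and that of Acadvl to between 0.975 and 1.18 times, while for Cpt1a it reached from 0.663 to 1.07 times.

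**Figure D1:**
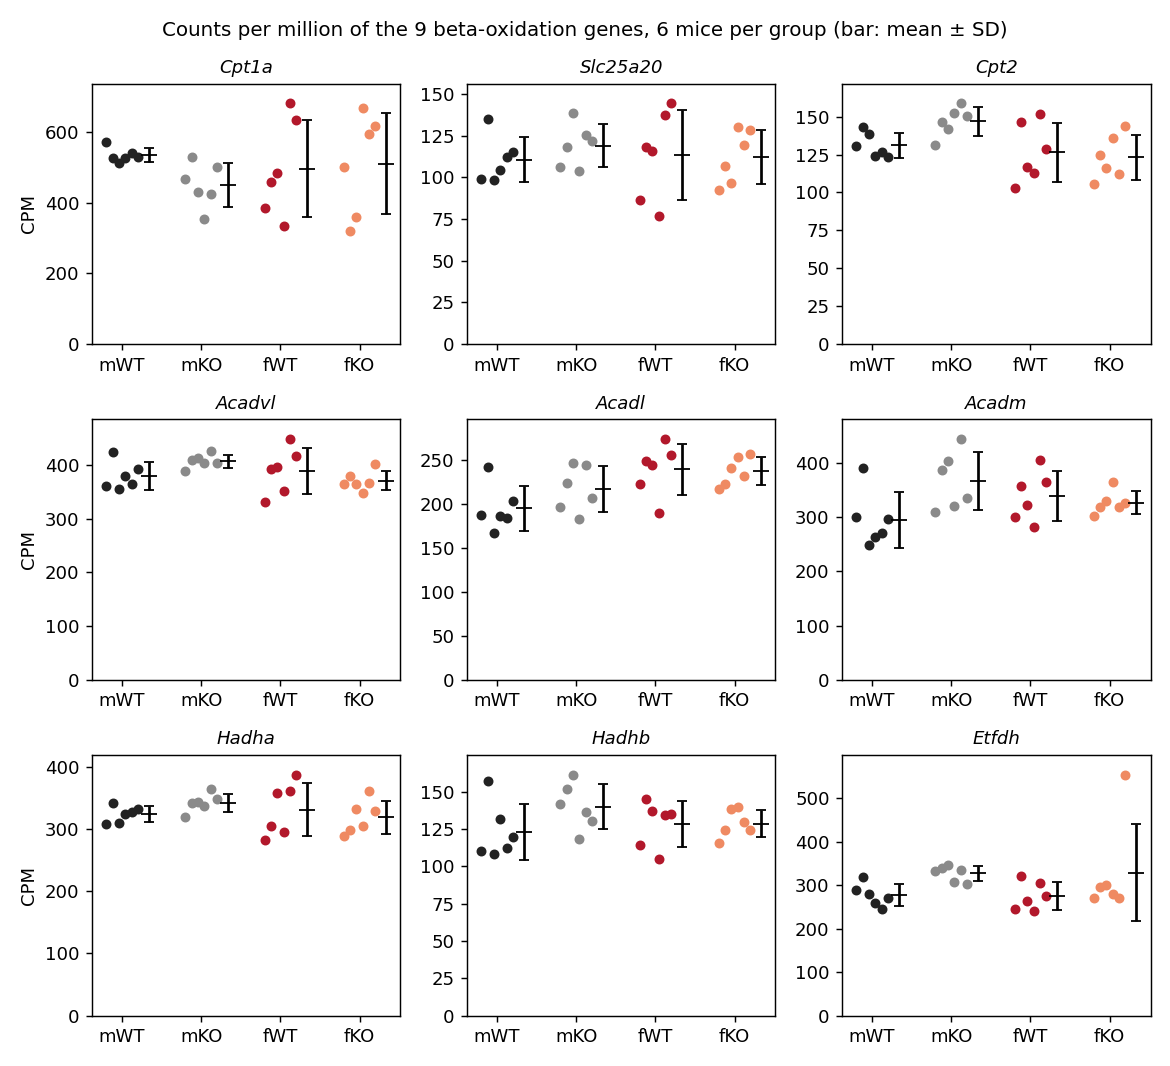
Each point is the CPM of a gene in a mouse (y axis, from 0) for the 4 groups of 6 mice (x axis), with the mean ± SD beside the points. The ranges of the groups overlap in every panel, Cpt1a spreads from 322 to 684 CPM in females, and Etfdh reaches 555 CPM in fKO replicate 6.

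In females, the KO effect on the 9 genes centred on 0. By the quasi-likelihood test of edgeR, adjusted after Benjamini and Hochberg, 0 of 9 were called, against 0.0892% of genes tested, and 0 of 9 had an unadjusted p under 0.01, against 0.876%. In the fit without the Mup genes, 0 of all genes tested were called. None of the 9 had an unadjusted p under 0.05, beside 601 of 12330 genes, and DESeq2 called 0 of 9. The log2 fold change was above 0 in 3 of 9 genes, against 49.1% of all genes, with a median of -0.01 beside -0.003 over all genes. Leaving Etfdh aside, the values lay between -0.07 (Acadvl) and 0.04 (Cpt1a).

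Etfdh had the highest female value, 0.26 (SE 0.13, adjusted p = 0.929, edgeR), and this value rested on 1 mouse. It had 242, 270 and 321 CPM in the lowest, median and highest fWT mouse. The fKO mice had 272, 288 and 555 CPM, and the mouse at 555 CPM was fKO replicate 6, with the other 5 at or below 301 CPM. Without it the log2 fold change was 0.05 (SE 0.0784, adjusted p = 0.983, edgeR).

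Genes next to Etfdh were also at their highest in fKO replicate 6. Of 7 genes tested within 1 Mb of Etfdh, itself included, 5 had their highest CPM of all 24 mice in this library. These genes were examined after the value of Etfdh had been seen. Ppid, a cyclophilin whose gene model ends next to that of Etfdh at chr3:79591342-79603650, had 67.9 CPM there and 30.6 to 42.6 CPM in the other 23 mice. Fnip2, at chr3:79455974-79567796, had 72.7 CPM against 22.1 to 59.6 CPM. Rapgef2, at chr3:79062516-79286517, had 46.5 CPM against 14.9 to 24.8 CPM. The ratio to the median of the other mice was 1.91 for Etfdh, 2.02 for Ppid, 1.93 for Fnip2 and 2.38 for Rapgef2. On the other side, Tmem144 at chr3:79812564-79852773 had 4.68 CPM, 0.818 times the median of the others. The remaining gene of the 5, 4930579G24Rik at chr3:79629079-79632820, overlaps the start of Etfdh and extends beyond it. It was barely counted, at 1.11 CPM against 0.166 to 1.01 CPM. The genes with raised values thus adjoined each other over the stretch from 4930579G24Rik through Etfdh to Rapgef2. No cause of this was tested.

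**Figure D2:**
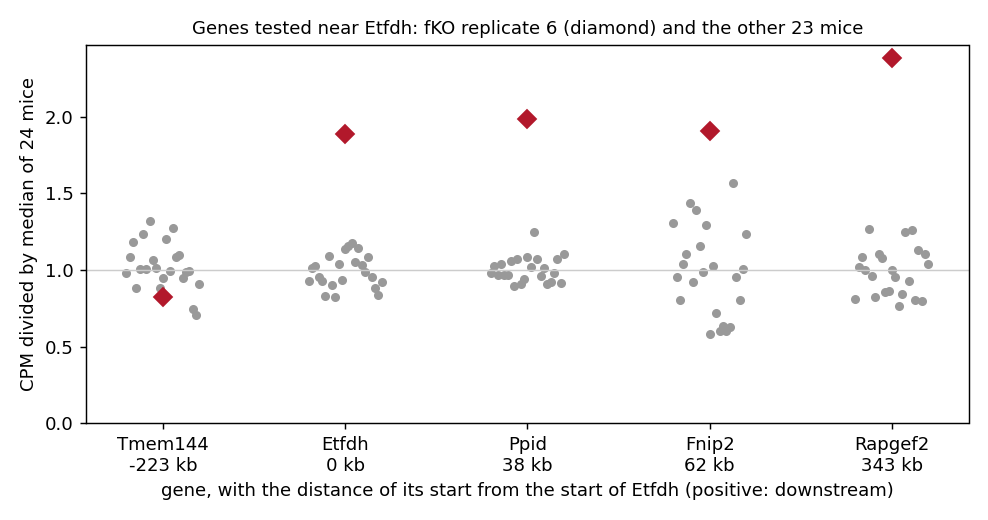
Each point is the CPM of a mouse divided by the median of all 24 mice (y axis, from 0) for genes near Etfdh with a median above 3 CPM, placed in the order of their start sites (x axis, distance from the Etfdh start in kb). Etfdh, Ppid, Fnip2 and Rapgef2 are raised in fKO replicate 6 (diamond), and Tmem144 is not.

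Whether the KO effect differed between the sexes was tested as an interaction, the male minus the female log2 fold change. By the quasi-likelihood test of edgeR, adjusted after Benjamini and Hochberg, 0 of 9 genes were called, against 0.00811% of genes tested. At an unadjusted p under 0.01 there were 0 of 9, against 1.16%. At an unadjusted p under 0.05 there was 1 of 9, beside 735 of 12330 genes. This was Acadm at 0.37 (SE 0.149, adjusted p = 0.823, edgeR). DESeq2 called 0 of 9. The difference was above 0 in 7 of 9 genes, against 50% of all genes, with a median of 0.17 beside a median of 0.00 over all genes. Without mWT replicate 2 the value of Acadm was 0.46 with an adjusted p of 0.58 by edgeR, and 1 of 9 then had an unadjusted p under 0.01. Without fKO replicate 6 that of Etfdh moved from -0.02 to 0.19.

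Between the sexes in WT mice, 1 of 9 genes was called by edgeR's quasi-likelihood test, against 17.3% of genes tested. The called gene was Acadl, the long-chain acyl-CoA dehydrogenase, which had 168, 186 and 242 CPM in the lowest, median and highest mWT mouse and 190, 247 and 274 CPM in fWT mice. All 6 fWT mice lay above the mWT median and 4 of them above every mWT mouse. Acadl was higher in fWT mice by a log2 fold change of 0.30 (SE 0.0931, adjusted p = 0.0283, edgeR). The call did not hold in the fit of only these 2 groups (adjusted p = 0.0514, edgeR), nor when mWT replicate 3, 4 or 5 or fWT replicate 5 or 6 was left out, where the adjusted p from edgeR was 0.0755, 0.0549, 0.0593, 0.076 and 0.0565. Over all alternatives it ranged from 0.00526 to 0.076. Of the 9 genes, 6 were above 0 in females, against 50.4% of all genes, with a median of 0.03 beside 0.002 over all genes. Without mWT replicate 2, Acadm was also called, at 0.30 with an adjusted p of 0.0357 by edgeR, from 0.20 and 0.206 with it.

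In KO mice the 1 called gene of 9 was Cpt2, against 14.4% of genes tested. Cpt2, the inner-membrane carnitine palmitoyltransferase, had 131, 149 and 159 CPM in the lowest, median and highest mKO mouse and 106, 120 and 144 CPM in fKO mice. All 6 fKO mice lay below the mKO median, and the ranges overlapped. Cpt2 was lower in fKO mice with a log2 fold change of -0.26 (SE 0.0875, adjusted p = 0.049, edgeR). The adjusted p from edgeR was at or above the threshold of 0.05 in 5 other settings and 9 of 12 fits that left out a mouse, with a range of 0.0229 to 0.119 over all alternatives. The mice whose loss ended the call were mKO replicates 2 to 6 and fKO replicates 1, 2, 3 and 5, with adjusted p-values from edgeR of 0.07, 0.0563, 0.0939, 0.106, 0.092, 0.119, 0.0736, 0.0942 and 0.114 in that order. Of the 9 genes, 3 were above 0 in females, against 50.9% of all genes, with a median of -0.10 beside 0.004 over all genes. Without fKO replicate 6 the value of Etfdh moved from 0.01 to -0.20 (adjusted p = 0.0864, edgeR). Whether the sex difference itself differed between WT and KO mice is the interaction tested above, in which neither Acadl nor Cpt2 was called.

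**Figure D3:**
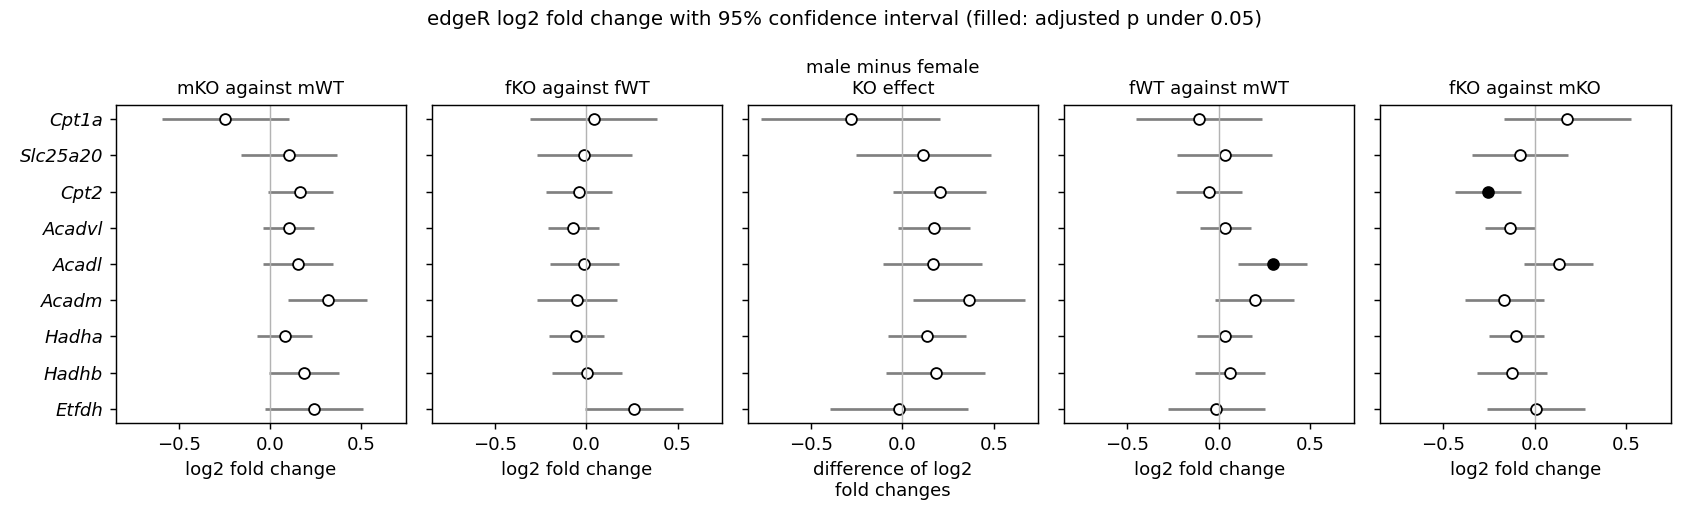
Points are edgeR log2 fold changes of the 9 genes (x axis) with 95% confidence intervals for the 5 comparisons, and filled points have an adjusted p under 0.05. In mKO against mWT mice all points but Cpt1a lie above 0, in fKO against fWT mice they lie near 0 apart from Etfdh at 0.26, and Acadl (fWT against mWT) and Cpt2 (fKO against mKO) are the filled points.

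Markers of other liver cells moved with sex. In fWT against mWT mice, 4 of 6 Kupffer cell markers, 4 of 6 endothelial markers and 2 of 6 stellate cell markers were called, all higher in females, and all 18 were above 0. Of all genes tested, 17.3% were called in either direction and 50.4% were above 0. The summed level of the Kupffer markers was 71.3 to 145 CPM in mWT, 70.1 to 191 CPM in mKO, 130 to 237 CPM in fWT and 110 to 191 CPM in fKO mice. The endothelial markers summed to 101 to 131, 102 to 123, 120 to 155 and 109 to 156 CPM, and the stellate markers to 182 to 312, 185 to 256, 259 to 352 and 241 to 347 CPM, in the same order of groups. Of 5 cholangiocyte markers, 1 of the 3 tested was called higher in fWT mice, and the 5 summed to 30.4 to 56.3 CPM over all groups. The 5 blood markers summed to 149 to 260 CPM in males and 40.5 to 67.8 CPM in females, of which Alas2 was called in WT and all 5 were called in KO mice, lower in females. Most of that gap was Alas2, with means of 132 CPM in mWT, 126 in mKO, 12.1 in fWT and 14.1 in fKO mice. The highest globin gene, Hbb-bs, had means of 35.5, 48.5, 28.5 and 25.7 CPM in the same order. The leukocyte markers summed to at most 5 CPM, the adipocyte markers to at most 0.464 CPM with Lep at 0 in every group, and the muscle markers to at most 0.206 CPM. In KO mice, 0 of 6 Kupffer, 2 of 6 endothelial and 3 of 6 stellate markers were called higher in females. The share of all genes called there, in either direction, was 14.4%. In neither KO comparison was a marker of these lists called, by edgeR. All 6 Kupffer markers had a log2 fold change below 0 in fKO against fWT mice, beside 6273 of 12330 genes. Their median was -0.33, and their part in the female values was not tested. The part of these cells in the sex differences of Acadl and Cpt2 was not tested.

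Over individual mice the 9 genes varied together. After the group mean was removed from log2 CPM, all 36 pairs of genes had a Pearson r above 0, with a median of 0.545 and a range of 0.186 to 0.922 over 24 mice, beside a median of -0.00121 over all pairs of tested genes. Permutation within groups gave 26 of 36 pairs an adjusted p under 0.05 for Pearson's r and 25 for Spearman's rho, adjusted over the 36 pairs. The values share libraries and their normalization, so a difference in depth or composition between libraries enters both genes of a pair. With DESeq2 size factors the median r was 0.55. It was 0.506 within males, where 33 of 36 pairs were above 0, and 0.679 within females, where all 36 were. Without fKO replicate 6 and mWT replicate 2, a choice made after seeing the data, all 36 remained above 0 with a median of 0.561, and 20 had an adjusted p under 0.05 by the permutation test.

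Acadm and Acadl were the most closely linked pair, with r = 0.922 and rho = 0.917. The permutation p was 1e-05 for each, the smallest that 100000 permutations can give, with an adjusted p of 0.00018 for r and 0.00012 for rho. Without the 2 mice farthest from the median of Acadm, r was 0.897, and it was 0.945 within males and 0.896 within females. Acadl and Slc25a20 had r = 0.84 and rho = 0.876 (permutation p = 1e-05 for each, adjusted p = 0.00018 and 0.00012, r = 0.779 without the 2 farthest mice). Slc25a20, the carnitine-acylcarnitine translocase, had the highest median r with the other members, 0.705, and Etfdh the lowest, 0.395. Without fKO replicate 6 and mWT replicate 2, the r of Etfdh with Acadm was 0.617 in place of 0.355, and that with Hadhb was 0.591 in place of 0.286.

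Hadha and Hadhb, the subunits of the same enzyme encoded on either side of the 85 bases shown above, were among the less closely linked pairs. Their r was 0.424 (permutation p = 0.0488, adjusted p = 0.065) and their rho was 0.373 (permutation p = 0.0983, adjusted p = 0.131). Without the 2 farthest mice r was 0.373, and it was 0.403 within males and 0.533 within females. Hadhb had r = 0.805 and rho = 0.707 with Acadl (permutation p = 0.0001 and 0.00067, adjusted p = 0.0009 and 0.00432, r = 0.688 without the 2 farthest mice).

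Cpt1a differed between the sexes in its spread and in its links. Its coefficient of variation was 3.74% in mWT, 13.8% in mKO, 27.6% in fWT and 28% in fKO mice. In fWT mice it had 335, 472 and 684 CPM in the lowest, median and highest mouse, and in fKO mice 322, 548 and 670 CPM. Within females its r with the other 8 genes was 0.328 to 0.81, and within males -0.249 to 0.253, over 12 mice each. The difference between the sexes was not tested.

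Single mice differed from their group in most of the 9 genes at once. In fWT replicates 1 and 4, 0 of 9 genes lay above the group mean, and the 9 genes summed to 2071 and 1991 CPM. In fWT replicates 5 and 6, 9 of 9 lay above it, at 2900 and 2744 CPM. In mWT replicate 2 it was 8 of 9, at 2681 CPM, and in fKO replicate 6 it was 7 of 9, at 2884 CPM. The summed level was 2371 ± 162 CPM in mWT, 2518 ± 155 CPM in mKO, 2439 ± 359 CPM in fWT and 2459 ± 265 CPM in fKO mice (SD, n = 6), so the groups differed by less than the spread within them.

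**Figure D4:**
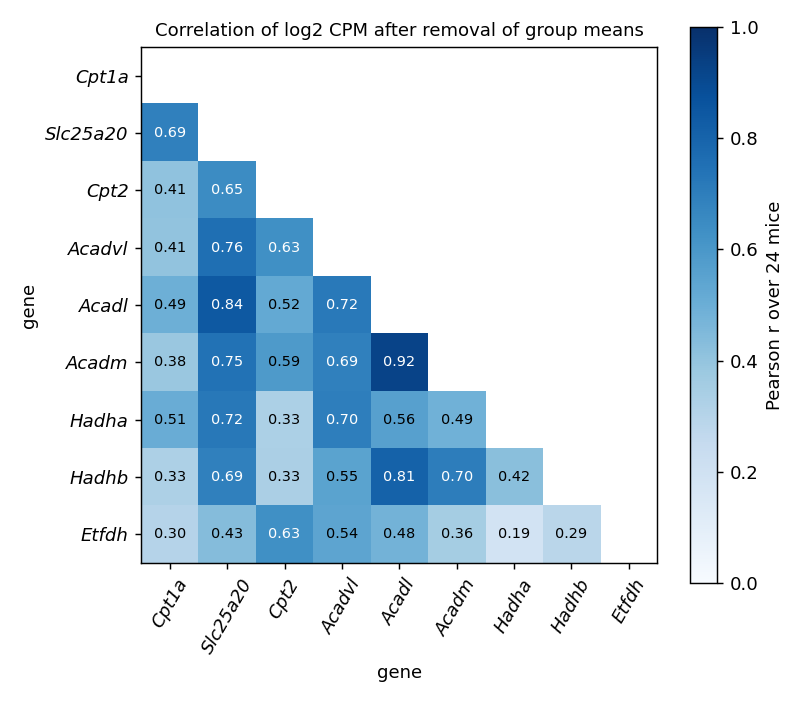
Each cell is the Pearson r over 24 mice between the log2 CPM of a pair of genes (both axes) after removal of group means, from 0 (white) to 1 (dark). Acadm with Acadl (0.92) and Acadl with Slc25a20 (0.84) are the darkest cells, and Etfdh with Hadha (0.19) is the lightest.

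Among all other genes tested, those whose deviations followed the mean of the 9 closely included Cyp4a10 (r = 0.886), Cpox (0.884), Decr1 (0.872) and Cyp2e1 (0.853), over 24 mice. Cyp4a10 is a fatty acid omega-hydroxylase, Cpox belongs to heme synthesis, Decr1 is the mitochondrial dienoyl-CoA reductase and Cyp2e1 is a microsomal cytochrome P450. Within males the r of Cyp4a10 was 0.862 and within females 0.933, and for Cyp2e1 these were 0.723 and 0.938. Cyp4a10 has close copies in the genome, among which reads may be divided. Ppara itself had r = 0.428, Bdh1 0.512 and Acat1 0.804.

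Of ketone body metabolism, Bdh1 and Acat1 were set beside the 9. Bdh1, which reduces acetoacetate, had 196 ± 31.3 CPM in mWT, 214 ± 18.5 in mKO, 242 ± 39.1 in fWT and 233 ± 25.9 in fKO mice (SD, n = 6). Its log2 fold change was 0.13 in males (SE 0.108, adjusted p = 0.741, edgeR) and -0.06 in females (SE 0.107, adjusted p = 0.97, edgeR). Acat1, the mitochondrial acetoacetyl-CoA thiolase, was at 0.16 in males (SE 0.12, adjusted p = 0.69, edgeR) and -0.05 in females (SE 0.12, adjusted p = 0.976, edgeR). Neither was called in any of the 5 comparisons, by edgeR, and Bdh1 was at 0.30 in fWT against mWT mice (adjusted p = 0.0506, edgeR). Of the 4 genes on the ketogenesis list, 0 were called in the KO comparisons, the interaction or the sex difference in WT mice. In fKO against mKO mice 1 was called lower, against 14.4% of all genes called.

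The other 14 genes of mitochondrial beta-oxidation were described in the same way. In males all 14 were above 0, against 49.4% of all genes, and 0 were called by edgeR. Their median was 0.12 and their range 0.03 to 0.62 (Acot2, an acyl-CoA thioesterase). In females 3 of 14 were above 0, against 49.1% of all genes, with a median of -0.06. In the interaction all 14 were above 0, against 50% of all genes, and 0 were called. Acads, the short-chain dehydrogenase, was at 0.30 (adjusted p = 0.816, edgeR). Genes of this list followed the mean of the 9 over mice to different degrees, with r from -0.336 (Acad9) to 0.872 (Decr1). Their 14 signs are not separate observations, and the interaction uses the same male mice. Between the sexes in WT mice, Hadh (log2 fold change 0.31), Acad9 (0.38) and Acot2 (1.46) were called higher and Hsd17b10 (-0.42) lower in females. In KO mice, Acad9 (0.23) was called higher, and Acads (-0.39), Acaa2 (-0.27), Eci1 (-0.35) and Hsd17b10 (-0.69) lower, in females. Of all genes tested, 17.3% were called in WT and 14.4% in KO mice. Hadh is the short-chain 3-hydroxyacyl-CoA dehydrogenase, Acaa2 the last thiolase of the cycle and Eci1 an enoyl-CoA isomerase.

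Of 9 tested genes of fatty acid activation and carnitine handling, 7 were above 0 in males, against 49.4% of all genes. In females 7 were above 0, against 49.1%, and 0 were called by edgeR in either sex. Acsl4, an acyl-CoA synthetase, was at -0.36 in males (adjusted p = 0.217, edgeR), and in the interaction at -0.58 (adjusted p = 0.745, edgeR). In fWT against mWT mice Acsl1 (-0.34) and Acsl4 (-0.56) were called lower, and in fKO against mKO mice Fabp1 (-0.46), the liver fatty acid binding protein. The shares of all genes called in these comparisons were 17.3% and 14.4%.

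Ppara had 136 ± 16 CPM in mWT, 110 ± 17.1 in mKO, 108 ± 14.6 in fWT and 128 ± 34.4 in fKO mice (SD, n = 6). Its log2 fold change was -0.31 (SE 0.145, adjusted p = 0.454, edgeR) in males and 0.24 (SE 0.145, adjusted p = 0.929, edgeR) in females, with an interaction of -0.55 (adjusted p = 0.816, edgeR). None of the 11 regulators of the pathway was called in any of the 5 comparisons by edgeR.

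A list of 13 known Ppara targets outside the mitochondrial cycle held genes of omega-oxidation, lipid uptake, lipid storage and secreted factors. Like the other lists, it was chosen with earlier results of these data known. In males all 13 were above 0, against 49.4% of all genes, with a median of 0.57, and 0 were called by edgeR. At an unadjusted p under 0.01 by edgeR there were 5, against 3.52% of all genes. These were Cyp4a14 (log2 fold change 2.85, adjusted p = 0.152, edgeR), Mogat1 (1.35), Cyp4a10 (1.45), Cd36 (0.68) and Plin2 (0.57). Mogat1, an enzyme of triglyceride synthesis, had at most a mean of 1.10 CPM in any group. In females 5 of 13 were above 0, against 49.1% of all genes, and 0 were called. In the interaction Cyp4a14 was at 3.28 (adjusted p = 0.816, edgeR) and Cd36 at 0.92. Between the sexes in WT mice, Cyp4a10 (2.28), Cyp4a14 (3.69), Cyp4a31 (1.30) and Vnn1 (0.99) were called higher in females, and in KO mice Plin2 (-0.49) and Mogat1 (-1.58) were called lower in females. Beside these, 17.3% of all genes were called in WT and 14.4% in KO mice.

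Of 13 peroxisomal genes, 10 were above 0 in males, against 49.4% of all genes, and 0 were called by edgeR. Crot (0.72) and Acaa1b (0.38) had an unadjusted p under 0.01 by edgeR, against 3.52% of all genes. Crot moves medium-chain acyl groups onto carnitine for export from peroxisomes. In fWT against mWT mice, Hsd17b4 (-0.27), Acaa1b (-0.59) and Abcd3 (-0.44) were called lower, and Abcd2 (2.56) and Acot4 (1.51) higher. In fKO against mKO mice, Hsd17b4 (-0.41), Acaa1a (-0.27) and Acaa1b (-0.95) were called lower, and Abcd2 (2.90) and Acot4 (1.77) higher. Among all genes, 17.3% were called between the sexes in WT and 14.4% in KO mice. Acaa1a with Acaa1b, and the Acot genes, have close copies, among which reads may be divided.

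Other mitochondrial genes served as a comparison for organelle content. Of 12 genes of the citric acid cycle, protein import and mitochondrial DNA upkeep, 7 were above 0 in males and 5 in females, with medians of 0.01 and -0.01, and 0 were called by edgeR in either sex. Idh2, an isocitrate dehydrogenase, was called higher in fWT than in mWT mice (log2 fold change 0.42), against 17.3% of all genes called. The succinate dehydrogenase subunits Sdha (-0.21) and Sdhb (-0.24) were called lower in fKO than in mKO mice, against 14.4% of all genes called.

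Genes of feeding state and of the circadian clock were examined because both change oxidation genes in liver. Of 12 genes of feeding state, 6 were above 0 in males and 6 in females, and 0 were called by edgeR. Scd1, the stearoyl-CoA desaturase, was called lower in females, at -1.24 in WT and -1.43 in KO mice, where 17.3% and 14.4% of all genes were called. Of 11 clock genes, 3 were above 0 in males (49.4% of all genes) and 4 in females (49.1%), and 0 were called by edgeR. Per2 was at -1.11 in males (adjusted p = 0.216, edgeR). In males 3 of the 11 had an unadjusted p under 0.05 by edgeR, beside 1305 of 12330 genes. These were Per2, Per3 (-1.05) and Clock (0.51). The part of the clock in the male values was not tested. Among 8 hepatocyte markers, 0 were called in either KO comparison, Ttr was at 0.30 in males (adjusted p = 0.212, edgeR), and Serpina1c was called lower in females, at -0.61 in WT and -0.60 in KO mice, as was Ttr in KO mice at -0.42.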

How the data were processed

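Per the labels and the methods of the study, total RNA of whole snap-frozen liver was made into TruSeq stranded mRNA libraries. The submitters' processing notes name bcl2fastq 2.19, fastp 0.20, STAR 2.7a, GRCm38.p6 and edgeR 3.28.1. The authors deposited whole-number counts of reads per gene, made with featureCounts. The annotation release, the strand setting and the treatment of multi-mapping reads are not given in the sources used here. Of the genes, 25712 matched GENCODE M21 by ID and 34 did not.

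The study's cut-off of 0.66 CPM was read as a level to be reached in 6 or more of the 24 libraries, which left 12330 genes. The study reports more expressed genes than this, so its gene set was not recovered. Read word for word, its rule asks for 19 libraries, and this was an alternative. The 12330 genes were fitted in edgeR 4.0.16 (R 4.3.3) with TMM normalization, robust quasi-likelihood and all 4 groups. Adjusted p-values are Benjamini-Hochberg over all genes tested. CPM are counts scaled to the TMM-adjusted library size. Correlations used log2 CPM (prior count 2) and 100000 two-sided permutations within groups. The scripts were tested on simulated data. DESeq2 1.42.0, other filters and other fits were alternatives.

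All 9 members were named, as were genes of the other lists with an adjusted p under 0.05, up to 4 of each list and comparison with an unadjusted p under 0.01, Bdh1, Acat1, Ppara, and the 5 genes nearest to the members' mean profile. Some genes that this rule names are not reported here. Members and lists were chosen with earlier results of these data known. Replicate numbers were not treated as pairs. Same-numbered mice of different groups correlated with a median r of -0.00193 and a range of -0.335 to 0.253, which does not show that they were unpaired. Counts of replicates differed by more than sampling noise in every group.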

Additional observations from a re-analysis of the deposited data

Results flagged for a closer look

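In each of 36 combinations of gene and group, the gap of the most extreme mouse to the nearest other was divided by the range of the group and compared with Dixon's 95% critical value for 6 samples. Chance passes that value in about 1 in 20 groups, and 2 of 36 passed. Etfdh in fKO replicate 6 was at 555 CPM, with the other 5 fKO mice between 272 and 301 CPM (share of the range 0.897). The neighbouring genes Ppid, Fnip2 and Rapgef2 were at their highest in the same library. Acadm in mWT replicate 2 was at 392 CPM, with the other 5 mWT mice between 250 and 300.2 CPM (share of the range 0.644). None of the 6 genes tested within 1 Mb of Acadm was at its highest in that library. No difference between the sexes in the KO effect was called among the 9 genes.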

How the results depend on the processing

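The count of called members stayed at 0 in both KO comparisons (22 alternatives each) and in the interaction (33 alternatives). In WT mice the sex difference had 1 called member, 0 in the fit of only the 2 groups, and 0 to 2 over fits that left out a mouse. In KO mice it had 1, with 0 under no filter, the filter at 19 libraries, filterByExpr, non-robust dispersions and the fit of only the 2 groups, and 0 to 1 with a mouse left out. The count at an unadjusted p under 0.01 ranged with a mouse left out from 0 to 2 for the KO effect in males, 0 to 1 for the interaction, 0 to 2 for the sex difference in WT and 0 to 1 in KO mice. Calls over all genes, which give the background shares, moved more in the KO comparisons. In males they were 26, with 139 by DESeq2, 48 in the fit of only the 2 groups, 2 without the Mup genes and 1 with the filter at 19 libraries. In females they were 11, with 18 by DESeq2 and 0 without the Mup genes or with the filter at 19 libraries, and in the interaction 1, with 11 by DESeq2 and 0 with that filter. Values near 0 changed sign with a mouse left out. For the KO effect in females the ranges were -0.052 to 0.15 for Cpt1a, -0.094 to 0.020 for Cpt2, -0.099 to 0.0071 for Acadm, -0.070 to 0.032 for Acadl, -0.049 to 0.042 for Hadhb and -0.10 to 0.072 for Slc25a20. For the interaction the range was -0.070 to 0.19 for Etfdh. For the sex difference in WT they were -0.11 to 0.0051 for Cpt2, -0.0068 to 0.083 for Acadvl, -0.016 to 0.079 for Hadha, -0.049 to 0.12 for Slc25a20 and -0.060 to 0.031 for Etfdh, and for that in KO mice -0.20 to 0.060 for Etfdh. With the replicate number as a block, the sign changed for Slc25a20 in females (0.0094), for Etfdh in the interaction (0.0075) and for Etfdh in the sex difference in KO mice (-0.022), and no count of called members changed. The same number was taken as a name only, since 10 of 36 pairs of same-numbered mice from different groups correlated above 0.1 and 1 of 24 libraries correlated best with its own number. The cause of these changes was not tested, other than that fewer mice or groups enter such fits. The SE of the KO effect in males ran from 0.0673 (Acadvl) to 0.168 (Cpt1a) on the log2 scale, which sets the precision of each value. Using the longest transcript moved 7 of 9 levels per length by more than their spread.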

Other observations

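Genes of lipid synthesis in the fed state had negative correlations with the 9 genes over mice. Over the 24 mice, after removal of group means, the r with the mean of the 9 was -0.591 for Srebf1, the regulator of lipid synthesis, -0.597 for Pnpla3, -0.53 for Fasn, the fatty acid synthase, and -0.395 for Scd1. Of the fasting-responsive genes of the same list, Fgf21 was at 0.515, Angptl4 at 0.626, Pck1 at 0.416, G6pc at 0.00186, Pdk4 at -0.118 and Igfbp1 at -0.27. These genes were singled out after their values were seen, the values share libraries and normalization, and they are given as a description. Fgf21 and Pnpla3 were near the cut-off of 0.66 CPM, with group means of 0.480 to 0.678 and 0.543 to 1.30 CPM.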
